A study of Microcebus murinus with 18 samples.

Results

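The genes described here are the nuclear-encoded subunits of respiratory complexes II, III and IV and of ATP synthase (complex V), together with cytochrome c, in the temporal cortex of the grey mouse lemur, Microcebus murinus. The list holds 41 genes and was fixed by gene symbol, without use of their values. Of the 41 genes, 38 had at least 1 probe set annotated to them alone, 82 probe sets in all, among 54613 probe sets without controls. After a filter that ignores the groups, in which at least 3 of the 18 signals had to be 150 or more, 50 probe sets of 32 member genes remained among 14567 tested. Total RNA of each animal was read on 1 array, of the human HG-U133 Plus 2.0 design. The 3 groups were 2 “AD-like” old females, 10 healthy old lemurs (3 males, 7 females) and 6 young adult lemurs (2 males, 4 females), all born in captivity and given no treatment or genetic change by the labels. “AD-like” animals are old lemurs in which cerebral ß-amyloid plaques and cortical atrophy had been seen, a spontaneous condition of a small share of old animals, and they are represented by females alone. The labels give age as a category only.

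The respiratory chain sits in the inner mitochondrial membrane. Complex II (succinate dehydrogenase) passes electrons from the tricarboxylic acid cycle to ubiquinone, complex III passes them to cytochrome c, and complex IV (cytochrome c oxidase) passes them to oxygen. Complexes III and IV pump protons, and ATP synthase uses the return of the protons through its membrane rotor to drive the head that makes ATP. Neurons depend on this ATP to restore their ion gradients, and cortex is rich in mitochondria.

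The values are linear signals that the authors scaled to a trimmed mean of 100 on each array, and since lemur RNA met human probes, only the same probe set is compared between animals. The mean signal over all probe sets differed between arrays all the same, and lay between 156 and 248.2. The 4 arrays of AD-like F2, old M1, old M2 and young adult M2 gave a signal of at most 19.0 on the poly-A control dap, against at least 334 on the other 14 arrays. The 3′ over 5′ ratio of the GAPDH control is usually read as a measure of RNA integrity. On the log2 scale it was 0.47 ± 0.20 in AD-like animals (SD, n = 2), 0.59 ± 0.53 in old animals (SD, n = 10) and 0.31 ± 0.20 in young adults (SD, n = 6). The same ratio of ACTB was -1.48 ± 1.44, -1.92 ± 1.04 and -2.38 ± 0.54 in AD-like, old and young adult animals. Each ratio sets 2 different human probe sets against each other, so with lemur RNA its level is not a plain measure of integrity. Of 17 neuronal marker genes 16 were tested, and their summed signal was 47960 to 98560 in AD-like animals, 56030 to 121600 in old animals and 43820 to 115600 in young adults. The astrocyte markers GFAP and S100B, the oligodendrocyte marker MAL, and 8 of 10 microglial markers with a probe set did not reach the filter. The samples are pieces of whole cortex, in which fewer cells of a type and less RNA per cell cannot be told apart.

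Not every subunit could be followed. The succinate dehydrogenase anchor SDHD, the complex III subunits UQCRQ and UQCR11, the mobile carrier CYCS (cytochrome c itself), the complex IV subunit COX6C and the ATP synthase membrane subunit ATP5MF had probe sets, but none reached the filter, for 6 genes in all. SDHB, the iron-sulfur subunit of complex II, and UQCRFS1, the Rieske iron-sulfur protein of complex III, had no probe set named to the gene alone in the annotation used, and UQCRH, the hinge protein of complex III, was listed only together with other genes. The 50 tested probe sets comprised 4 of complex II, 8 of complex III, 16 of complex IV and 22 of complex V. Of the 41 member symbols, 39 are present in the lemur RefSeq annotation.

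The comparison of old with young adult animals asks what changes with age in the absence of plaques. Members were mostly brighter in old animals. The difference of log2(signal + 16) was positive for 40 of the 50 probe sets, with a median of 0.21, whereas the median over all 14567 probe sets was 0.03. In a limma model of the 3 groups, 14 member probe sets (28%) were nominally higher in old animals, that is, at an unadjusted p under 0.05, against 3.93% of all probe sets tested. One direction dominated, since 1 member (2%) was nominally lower, against 2.14% of all. After Benjamini-Hochberg adjustment no member passed, and neither did any other probe set (0% of all), the smallest adjusted p of a member being 0.814. The methods' t-test on linear signals gave 11 members (22%) nominally higher, against 3.28% of all probe sets, and 0 after adjustment. Among the 15 members without the suffix _s_at or _x_at, 6 (40%) were nominally higher, against 3.59% of all probe sets without it. The standard error of a member's difference lay between 0.18 and 0.50, and the differences of members between -0.87 and 1.10.

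**Figure D1:**
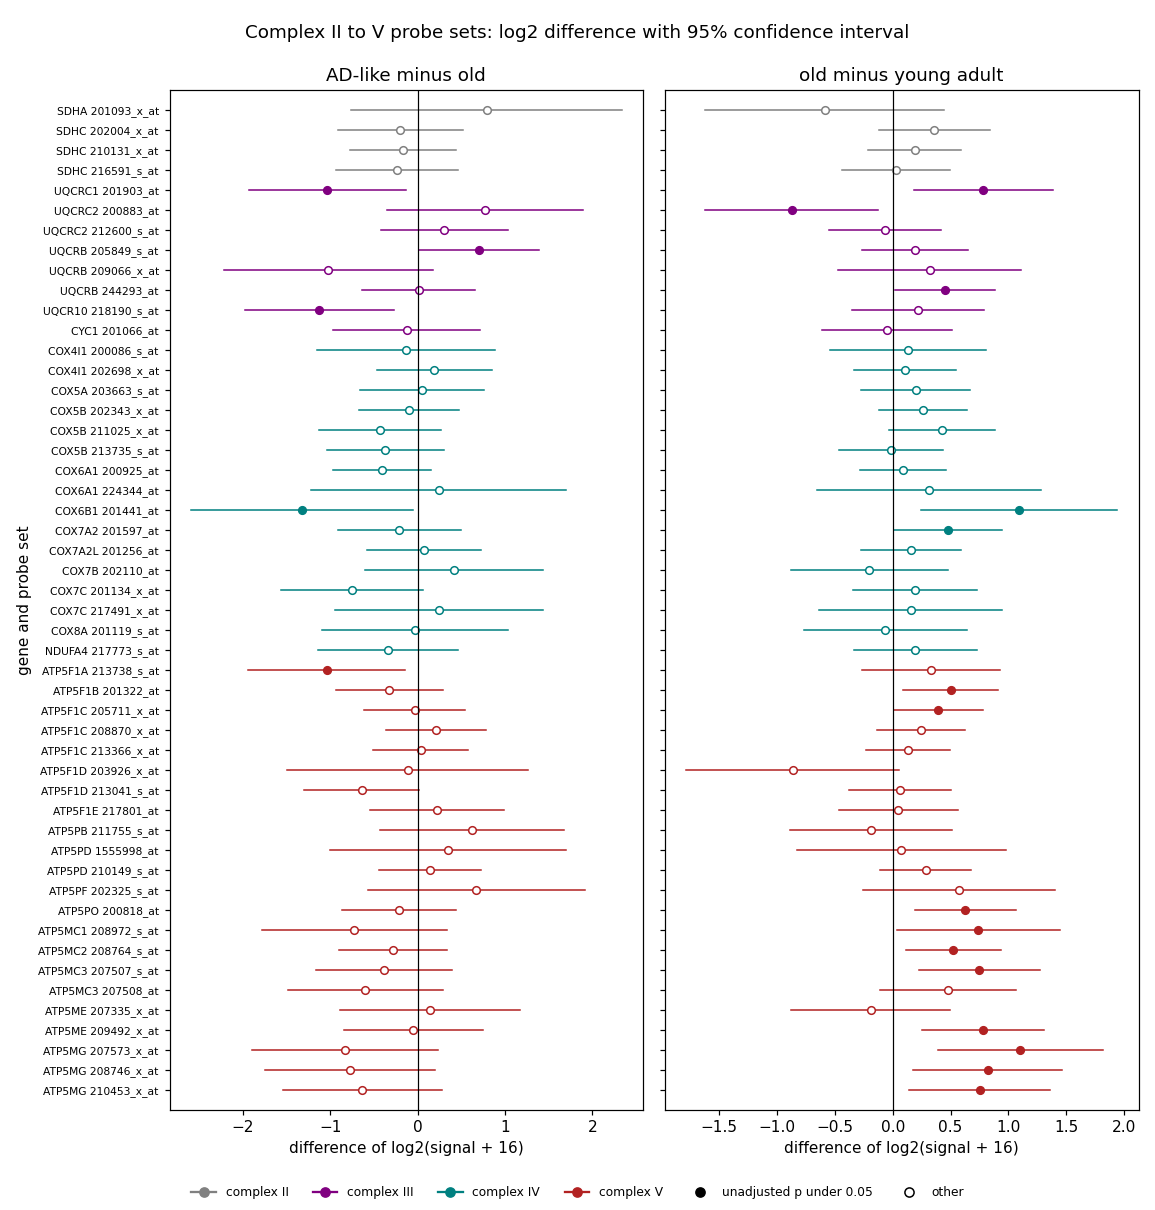
Difference of log2(signal + 16) for each of the 50 tested member probe sets, AD-like minus old on the left and old minus young adult on the right, with points for limma estimates, lines for 95% confidence intervals, and filled points where the unadjusted p is under 0.05. On the right, 14 filled points lie above 0 and 1 below it, and 10 of the 14 belong to complex V (red).

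The count rested in part on 1 animal and on how bright the probe sets were. Young adult M1 had the lowest signal of the 18 animals in 16 of the 50 member probe sets, and its array had the lowest mean signal. Without it, 5 members (10%) were nominally higher in old animals, against 2.23% of all probe sets, and the median difference of members was 0.17. These 5 were ATP5PO, ATP5MC2, ATP5MC3 (207507_s_at), ATP5ME (209492_x_at) and ATP5MG (207573_x_at), all of complex V. Probe sets with a mean signal of 500 or more were brighter in old animals as a class, with a median difference of 0.21 over 2956 probe sets, of which 9.37% were nominally higher. Of the 23 members in that class, 12 (52.2%) were nominally higher, with a median of 0.455. Quantile normalization, which gives every array the same distribution of values, brought the median of the bright class to 0.02 and that of its members to 0.215, and 10 of the 50 members (20%) stayed nominally higher, against 3.43% of all. Within the 14 arrays with poly-A control signal 13 of the 50 members (26%) were nominally higher, against 5.29% of all probe sets, with a median difference of 0.16. In the bright class these arrays gave 11 of 23 members (47.8%), against 14.7% of all.

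Complex II showed no nominal difference. SDHC, an anchor that holds the enzyme in the membrane, was read by 3 probe sets with differences of 0.03, 0.19 and 0.36. On 202004_x_at its signal was 230.5 at the lowest, 390 at the median and 557 at the highest in old animals, against 206, 299 and 408.5 in young adults. Of the old animals 7 of 10 lay above the young adult median and the groups overlapped (log2 difference 0.36, SE 0.23, limma adjusted p = 0.843). SDHA, the flavoprotein that oxidizes succinate, was scattered in both groups, with 5.46, 129 and 328 as lowest, median and highest in old animals, against 66.1, 175 and 296 in young adults. Its difference of -0.59 had an SE of 0.50 (limma adjusted p = 0.886), and only 3 of 10 old animals lay above the young adult median. The median over the 4 probe sets was 0.11.

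Complex III was mixed, with a median difference of 0.205. Of its 8 probe sets 2 (25%) were nominally higher, against 3.93% of all probe sets, and 1 (12.5%) nominally lower, against 2.14%. UQCRC1, a core subunit on the matrix side, gave signals of 1133, 1619 and 2863 (lowest, median and highest) in old animals, against 476, 1014 and 2083 in young adults. Each of the 10 old animals lay above the young adult median, although the ranges overlapped. The mean signal was 1.55-fold higher in old animals, and the log2 difference was 0.79 (SE 0.29, limma adjusted p = 0.814). UQCRC2, the other core subunit, went the opposite way on its dimmer probe set 200883_at, with 13.8, 98.3 and 173 in old animals, against 103, 179 and 201 in young adults. Here 0 of 10 old animals lay above the young adult median, and the difference was -0.87 (SE 0.36, limma adjusted p = 0.814). This probe set passed the filter only through the young adults, where it is high. The minimum signal was reached by 4 young adult, 1 old and 0 AD-like animals. Its place as the 1 member nominally lower in old animals is therefore a description only. The brighter UQCRC2 probe set 212600_s_at differed by -0.07 (SE 0.24). UQCRB, the subunit near the ubiquinone site, was read by 3 probe sets with differences of 0.19, 0.32 and 0.46. The highest of them, 244293_at, was nominally higher in old animals, with 959, 1334 and 1771 against 528, 1030 and 1425 in young adults. UQCR10, a small accessory subunit, differed by 0.22 (SE 0.28), and CYC1, the cytochrome c1 that hands electrons to cytochrome c, by -0.05 (SE 0.27).

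Complex IV had 16 probe sets, of which 13 (81.2%) had a positive difference, against 53.9% of all probe sets. Of the 16, 2 (12.5%) were nominally higher, against 3.93% of all, and the median was 0.175. COX6B1, a subunit on the side that faces cytochrome c, had the greatest difference among them. Its signal was 115, 248 and 527 (lowest, median and highest) in old animals, against 31.7, 105 and 386.5 in young adults. All 10 old animals lay above the young adult median, and 1 of them above every young adult, so the ranges overlapped widely. The mean signal was 1.75-fold higher in old animals and the log2 difference 1.09 (SE 0.41, limma adjusted p = 0.814). COX7A2, a small subunit where complex IV meets its partners, gave 837.5, 1407 and 2180 in old animals, against 596, 1164 and 1369 in young adults. The difference was 0.48 (SE 0.23, limma adjusted p = 0.814), and 5 old animals exceeded every young adult. COX5B, which binds zinc, had differences of -0.01, 0.26 and 0.43 on its 3 probe sets. The probe sets of COX4I1, the ubiquitous isoform of a large accessory subunit, differed by 0.10 and 0.135, and those of COX6A1 by 0.09 and 0.32. COX7C differed by 0.15 and 0.19, COX5A by 0.20, NDUFA4, first described as a complex I subunit, by 0.20, and COX7A2L, which joins complexes III and IV in supercomplexes, by 0.16. The differences of COX8A and COX7B were -0.06 and -0.20, each below its SE.

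Complex V carried most of the calls. Of its 22 probe sets 19 had a positive difference, with a median of 0.44. In old animals 10 (45.5%) were nominally higher, against 3.93% of all probe sets and 9.37% of bright ones. Nominally lower were 0, against 2.14% of all. Under quantile normalization 8 were nominally higher, against 3.43% of all probe sets, with a median of 0.21. Without young adult M1 the count was 5 (22.7%), against 2.23% of all probe sets, and the median was 0.25.

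In the catalytic head of ATP synthase, differences lay between -0.86 and 0.50, with a median of 0.19 over 8 probe sets. Of these, 2 (25%) were nominally higher, against 3.93% of all probe sets. ATP5F1B, the beta subunit that holds the catalytic sites, gave 1336, 1593 and 1899 (lowest, median and highest) in old animals, against 723, 1248 and 1574 in young adults. The log2 difference was 0.50 (SE 0.20), and 6 of 10 old animals exceeded every young adult. ATP5F1C, the gamma subunit that turns inside the head, had differences of 0.13, 0.25 and 0.39 on its 3 probe sets, of which 205711_x_at was nominally higher. ATP5F1A, the alpha subunit, differed by 0.33 (SE 0.29) and ATP5F1E, the epsilon subunit, by 0.05 (SE 0.25). The 2 probe sets of ATP5F1D, the delta subunit of the central stalk, disagreed, with differences of -0.86 (SE 0.45) and 0.06 (SE 0.21). Under quantile normalization no probe set of the head was nominally higher, and the median was 0.04.

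Among the peripheral stalk genes, whose products hold the head still, ATP5PO stood out. This gene encodes the subunit that ties the stalk to the top of the head. Its signal was 562, 705 and 794 (lowest, median and highest) in old animals, against 243, 497 and 635 in young adults. All 10 old animals lay above the young adult median, and 6 of them above every young adult (1.49-fold, log2 difference 0.63, SE 0.21, limma adjusted p = 0.814). ATP5PD differed by 0.08 and 0.29 on its 2 probe sets, ATP5PF by 0.57 with an SE of 0.40, and ATP5PB by -0.19 with an SE of 0.34.

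The c ring is the proton-driven rotor, and in mammals 3 genes, ATP5MC1, ATP5MC2 and ATP5MC3, encode the same mature c subunit with different import sequences. All 4 probe sets of these genes were brighter in old animals, with a median difference of 0.63. Of the 4, 3 (75%) were nominally higher, against 9.37% of bright probe sets and 3.93% of all. ATP5MC2 gave 734, 1003 and 1272 (lowest, median and highest) in old animals, against 476, 680 and 949 in young adults. For ATP5MC3, 207507_s_at gave 2599, 3687 and 5246 in old animals, against 1046, 2312 and 3885 in young adults. Every old animal exceeded the young adult median on both of these probe sets, and the differences were 0.52 (SE 0.20) and 0.75 (SE 0.25). ATP5MC1 was more scattered, with 1000, 2091 and 3190 in old animals, against 426, 1239 and 3046 in young adults (log2 difference 0.74, SE 0.34). The other ATP5MC3 probe set, 207508_at, was the brightest of the 4 and differed by 0.48 (SE 0.29). Under quantile normalization the same 3 probe sets were nominally higher, with a median of 0.46 over the 4. Probe sets with the suffix _s_at or _x_at can bind related sequences, so the separate levels of these genes are uncertain.

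The membrane subunits that stand beside the ring gave the greatest differences of complex V. Of their 5 probe sets 4 (80%) were nominally higher, against 3.93% of all probe sets and 9.37% of bright ones. These 4 were the 3 of ATP5MG and 1 of ATP5ME. The median of 0.78 was the value of that ATP5ME probe set, whose limits are given below. ATP5MG, the g subunit at which ATP synthase forms dimers, was read by 3 probe sets, all with the suffix _x_at and therefore not independent of one another. On 207573_x_at the signal was 2611, 6880 and 8758 (lowest, median and highest) in old animals, against 1115, 3273 and 5862 in young adults. Of the old animals 9 of 10 lay above the young adult median and 8 above every young adult. The old animals below the young adult maximum were the males M1 and M2. The mean signal was 1.89-fold higher in old animals and the log2 difference 1.10 (SE 0.34, limma adjusted p = 0.814), and the other probe sets of ATP5MG gave 0.82 and 0.75. ATP5ME, the e subunit of the same dimer region, was dim but separated the groups on 209492_x_at, with 113, 136 and 280 in old animals, against 49.1, 79.1 and 111.6 in young adults. This probe set passed the filter only through the groups where it is high, since its signals of 150 or more were those of 4 old animals and 1 AD-like animal, and it was the 1 member with no young adult at that minimum. Its place as the 1 member (2%) whose groups did not overlap upward, against 0.0206% of all probe sets, is therefore a description only. The same holds for its share in every count of members nominally higher in old animals, above and below, and in the median of the membrane subunits. Downward, the groups failed to overlap in 0 members, against 0.0137% of all. The gap was narrow, since the lowest old animal had 113.0 and the highest young adult 111.6. Its difference was 0.78 (SE 0.26, limma adjusted p = 0.814), whereas the dimmer ATP5ME probe set 207335_x_at differed by -0.19 (SE 0.33).

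**Figure D2:**
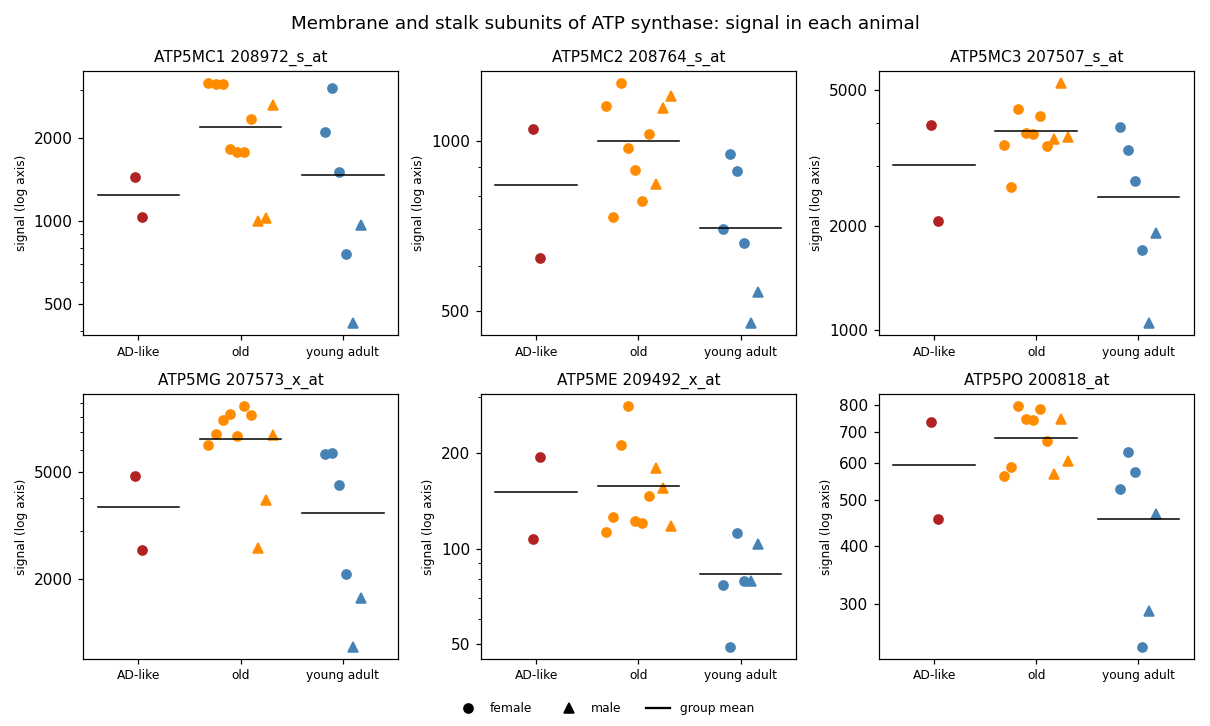
Signal on a log axis in each of the 18 animals for 6 ATP synthase probe sets, with circles for females, triangles for males and lines for group means. Old animals lie above most young adults in each panel, the ranges fail to overlap only for ATP5ME (113 to 280 in old animals, 49.1 to 111.6 in young adults), and the old males M1 and M2 are the lowest old animals for ATP5MG.

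Seen by animal, the median deviation of the complex V probe sets from their mean over the 18 animals was -0.38 and 0.23 in the AD-like animals F2 and F1, 0.07 to 0.30 in old animals and -0.86 to 0.17 in young adults. Old animals were tightly grouped (SD 0.08, n = 10) and young adults were widely spread (SD 0.39, n = 6). Young adults M1, F4 and M2 were lowest, whereas F1, F2 and F3 lay at -0.01 or above, so 3 of the 6 young adults carried most of the distance. These 3 arrays were also the lowest young adults over all bright probe sets, with median deviations of -0.59, -0.23 and -0.40, and had the lowest mean signals of the group, 156, 180.8 and 166.5, and the part of this in the result was not tested. Old M1 and M2 were low in the bright class too, at -0.31 and -0.36, while their complex V medians were 0.07 and 0.28. For complex IV the medians were -0.08 and 0.00 in AD-like animals, -0.05 to 0.56 in old animals and -0.29 to -0.02 in young adults, and the old males M1, M2 and M3 were the highest of the 18 animals at 0.295, 0.56 and 0.34. Complexes II and III showed no such order, and in complex III the group medians were 0.15, 0.18 and 0.14 in AD-like, old and young adult animals.

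**Figure D3:**
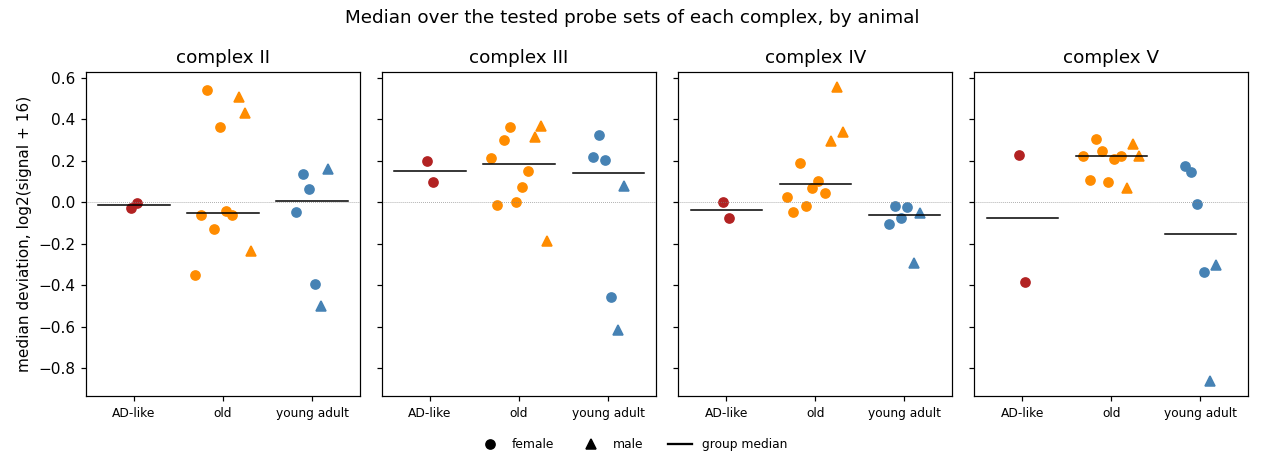
Median deviation of log2(signal + 16) over the tested probe sets of complexes II, III, IV and V in each animal, with circles for females, triangles for males and lines for group medians. In complex V the 10 old animals lie between 0.07 and 0.30, and the young adults spread from -0.86 to 0.17.

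Within the sexes, the difference of old from young adult animals had a median over members of 0.12 in females (7 old and 4 young adult animals) and 0.51 in males (3 old and 2 young adult animals), against 0.03 over all probe sets in either sex. In females 5 members (10%) were nominally higher, against 2.94% of all probe sets, and in males 17 (34%), against 5.86%. The 5 of the females were ATP5PO, ATP5ME (209492_x_at) and the 3 probe sets of ATP5MG. Those of ATP5MG are not independent of one another. The ATP5ME probe set passed the filter only through old and AD-like animals, so its share in this count is a description only. The difference between the sexes was itself tested by an interaction term, for which 5 members (10%) had an unadjusted p under 0.05, against 4.88% of all probe sets, and 0 passed adjustment (smallest adjusted p of a member 0.979). Those 5 were UQCRC1, COX6B1, COX7C (217491_x_at), ATP5F1A and ATP5MC3 (207507_s_at). For COX6B1 the difference was 0.46 in females and 2.36 in males. Young adult M1 is 1 of the 2 young adult males, and old M1, old M2 and young adult M2 are among the 4 arrays without poly-A control signal, so sex, these arrays and the animal cannot be told apart in males.

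**Figure D4:**
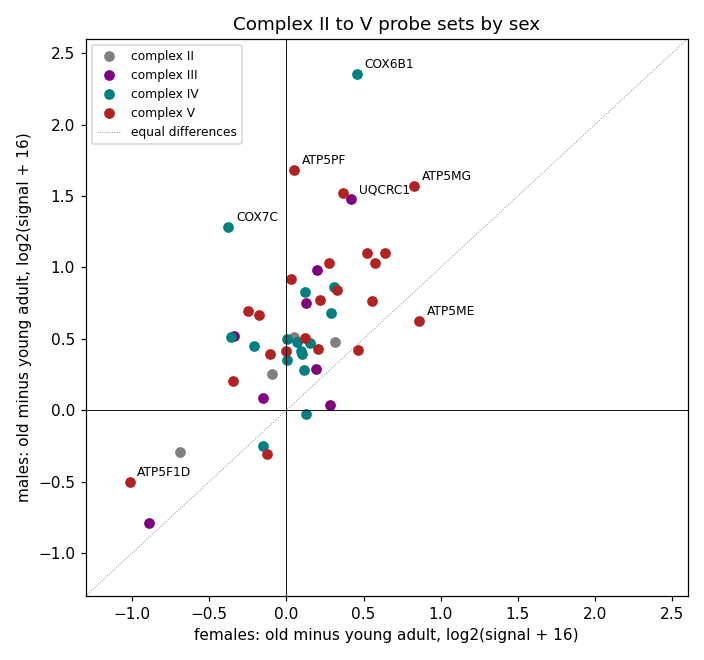
Old minus young adult difference of log2(signal + 16) in females (horizontal axis) and in males (vertical axis) for the 50 member probe sets, coloured by complex, with a dotted line for equal differences. Most points lie above the line, with COX6B1 at 0.46 in females and 2.36 in males, and ATP5ME (209492_x_at) below it at 0.86 in females and 0.63 in males.

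The comparison of AD-like with old animals asks what sets plaque-bearing animals apart from healthy ones of advanced age. It rests on 2 animals, taken to vary as the other animals do, and the standard errors of members lay between 0.265 and 0.75. The median difference over members was -0.13, against -0.02 over all probe sets, and 31 of 50 were negative. In limma 4 members (8%) were nominally lower in AD-like animals, against 3.83% of all probe sets, and 1 (2%) nominally higher, against 0.989%. No member passed adjustment (smallest adjusted p 0.919), against 0.00686% of all probe sets, a single one. Members with signals outside the range of old animals in both AD-like animals numbered 1 downward, against 1.63% of all, and 1 upward, against 1.39%. Bright probe sets as a class were lower in AD-like animals, with a median of -0.22 over 2956 probe sets and -0.28 over their 23 members, and quantile normalization brought these medians to 0.01 and -0.11.

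The AD-like animals were unlike each other. F2 lay below all 10 old animals in 13 of the 50 member probe sets (26%), against 13.7% of all probe sets, and in 8 of the 22 of complex V. Bright probe sets were low in F2 as a class, with 24.3% of all 2956 below every old animal and 9 of the 23 bright members (39.1%). F2 lay below F1 in 79.1% of the bright class. Over all 50 members, bright and dim, F2 lay below F1 in 68%, against 54.3% of all probe sets. F1 lay below all 10 old animals in 4 of 50 member probe sets (8%), against 8.05% of all. Without F1, 7 members (14%) were nominally lower, against 6.8% of all probe sets, and the median difference of members was -0.19. Without F2, 2 members (4%) were nominally lower, against 3.25%, and the median was 0.05. F2 is also the AD-like array without poly-A control signal and the one with the lower mean signal, 167 against 202 for F1, and its ACTB ratio was -0.465 against -2.50 for F1. The part of these in the result was not tested. With females alone 10 members (20%) were nominally lower, against 9.56% of all probe sets, and in the bright class 8 of 23 members (34.8%), against 23% of all.

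UQCRC1, the core subunit that was brighter in old animals, had signals of 1114 and 637 in AD-like F1 and F2, against 1133, 1619 and 2863 (lowest, median and highest) in old animals. It was the member that lay below every old animal in both AD-like animals, although F1 was only just under the lowest old animal. Its mean signal was 0.48 of that of old animals (log2 difference -1.03, SE 0.44, limma adjusted p = 0.971). The difference was -0.64 without F2 and -1.43 without F1. UQCR10 gave 37.7 and 63.3 in AD-like animals, against 59.0, 134 and 195 in old animals, with only F1 outside the range (log2 difference -1.13, SE 0.41, limma adjusted p = 0.919). The difference was -0.845 without F1 and -1.41 without F2. The UQCR10 probe set passed the filter only through the groups where it is high. The minimum signal was reached by 3 old, 1 young adult and 0 AD-like animals. Its share in the counts of members nominally lower in AD-like animals, against old and against young adult animals, is therefore a description only. UQCRB went upward on 205849_s_at, with 634 and 669 in AD-like animals, above all old animals at 247, 392 and 602 (log2 difference 0.70, SE 0.33). Its other probe sets gave 0.01 on 244293_at and -1.02 on 209066_x_at, where F1 had 14.1 and F2 had 145. UQCRB thus gave no single direction.

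Other members leaned more strongly on F2. COX6B1 gave 183 and 44.6 in AD-like F1 and F2, against 115, 248 and 527 in old animals, and its difference of -1.32 (SE 0.62, limma adjusted p = 0.971) was -0.47 without F2. ATP5F1A gave 1190 and 228, against 685, 1128 and 1410 in old animals, so that F1 stood above the old median and F2 below every old animal. Its difference of -1.04 (SE 0.44, limma adjusted p = 0.971) turned to 0.11 without F2. ATP5F1D (213041_s_at) gave 311 and 164, against 223, 381 and 516.5 in old animals (log2 difference -0.64, SE 0.32, limma adjusted p = 0.971). COX7C (201134_x_at) gave 242 and 113, against 101, 295 and 514 in old animals (log2 difference -0.75, SE 0.39, limma adjusted p = 0.971). Its other probe set, 217491_x_at, went the opposite way (log2 difference 0.24, SE 0.58). There F1 had 77.1 and F2 had 281, against 34.8, 149 and 217 in old animals, so COX7C gave no single direction. In complex II, SDHA gave 199 and 188, inside the old range of 5.46 to 328, and SDHC (216591_s_at) gave 677 and 818.5, against 578, 878 and 1316 in old animals, so that neither stood apart.

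**Figure D5:**
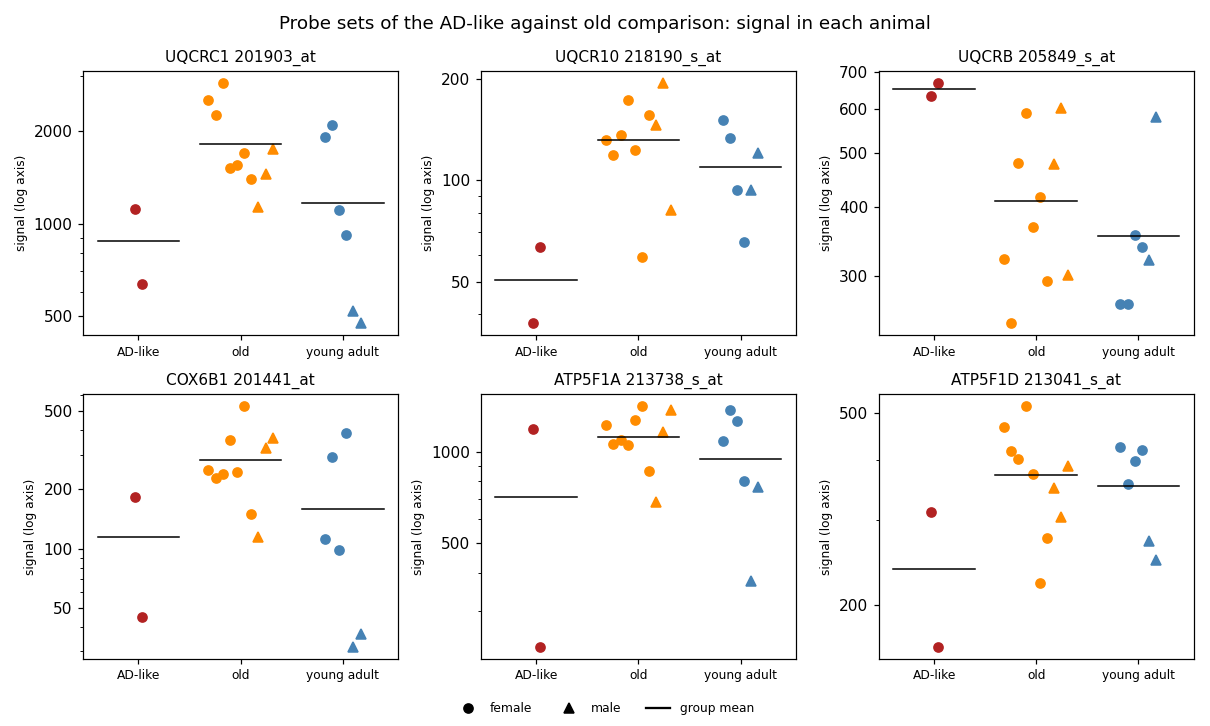
Signal on a log axis in each of the 18 animals for 6 probe sets of complexes III, IV and V, with circles for females, triangles for males and lines for group means. Both AD-like animals lie below the old range of UQCRC1 (1114 and 637, against 1133 to 2863 in old animals) and above that of UQCRB (634 and 669, against 247 to 602), whereas for COX6B1, ATP5F1A and ATP5F1D only F2 lies below it.

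For the c ring and the membrane subunits the 2 comparisons, which share the old animals, ran in opposite directions on most probe sets. Bright probe sets as a class did so too, with medians of 0.21 for old minus young adult and -0.22 for AD-like minus old. All c ring and ATP5MG probe sets are bright. The AD-like minus young adult median was 0.13 for the c ring and 0.12 for the membrane subunits. ATP5MG (207573_x_at) gave 4834 and 2559 in AD-like F1 and F2, a difference from old animals of -0.83 (SE 0.52), beside 1.10 for old minus young adult. Over the 4 c ring probe sets the AD-like minus old difference was negative in each, with a median of -0.49, beside 0.63 for old minus young adult. Both lean on F2, for without F2 the c ring median was -0.17 with 2 of 4 probe sets positive and that of the 5 membrane probe sets was -0.37, whereas without F1 these medians were -0.82 and -1.02. Quantile normalization gave a c ring median of -0.17. In the model of all 18 animals no probe set of the c ring or of the membrane subunits was nominally lower in AD-like animals. Among females alone, the sex of both AD-like animals, 2 of 4 c ring and 3 of 5 membrane probe sets were nominally lower. These were ATP5MC1 (-0.95), ATP5MC3 (207508_at, -0.86) and the 3 probe sets of ATP5MG (-1.09, -1.03 and -0.85), which are not independent of one another. All of those named are bright, and among females 9.56% of all probe sets and 23% of all bright ones were nominally lower. The peripheral stalk differed from the c ring and the membrane subunits, with positive AD-like minus old differences in 4 of 5 probe sets. Its median was 0.35, and ATP5PF and ATP5PB lay at 0.67 (SE 0.60) and 0.62 (SE 0.51). These 2 and ATP5PD (1555998_at, 0.35) had mean signals under 500, a class with a median of 0.05 over all its probe sets. The bright stalk probe sets, of ATP5PD (210149_s_at) and ATP5PO, lay at 0.14 and -0.21. The part of brightness in this contrast was not tested. Set directly against young adults, AD-like animals had a median difference over members of 0.165, against 0.015 over all probe sets, and of -0.08 without AD-like F1. In that comparison 1 member (2%), UQCRB (205849_s_at), was nominally higher, against 1.01% of all probe sets, and 1 (2%), UQCR10, nominally lower, against 3.22%, at log2 differences of 0.89 and -0.91. None passed adjustment, as for all probe sets (0%). The UQCR10 probe set passed the filter only through old and young adult animals, so its place here is a description only.

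Genes that work beside these complexes were read from lists, with the brightest probe set standing for each gene. For the members themselves this gave 10 of 32 genes (31.2%) nominally higher in old animals when set against young adults, with a median of 0.23. Of all probe sets tested 3.93% were nominally higher, with a median of 0.03. Taking the brightest probe set favours the bright class, in which 78.6% were positive and 9.37% nominally higher, with a median of 0.21. These shares stand beside each list below. Complex I, the entry point for electrons from NADH, had 8 of 28 tested genes (28.6%) nominally higher and 0 nominally lower, with a median difference of 0.33. The carriers and pores that move ATP, ADP and phosphate were all positive, 7 of 7 with a median of 0.36, and 2 were nominally higher. These were SLC25A5, an ADP/ATP exchanger, at 0.62 (SE 0.27) and VDAC3, a pore of the outer membrane, at 0.46 (SE 0.21). Of the tricarboxylic acid cycle enzymes 6 of 10 were positive with a median of 0.22, and SUCLG1, of the step before succinate dehydrogenase, was nominally higher at 0.56 (SE 0.24). Assembly factors of complexes II to V gave 8 of 10 positive and none nominally higher, with a median of 0.18. Among 9 tested regulators of mitochondrial biogenesis the median was -0.16, although PPARGC1A, a coactivator of respiratory genes, was nominally higher at 0.64 (SE 0.23). Of the further ATP synthase genes, ATP5MK, a small membrane subunit, was nominally higher at 0.75 (SE 0.28) and the inhibitor ATP5IF1 differed by -0.09 (SE 0.32). Neuronal markers, all in the bright class, gave 12 of 16 positive with a median of 0.33, against 78.6% and 0.21 over that class. Of these markers 1 was nominally higher and 1 nominally lower. Oligodendrocyte markers had a median of -0.02, and the part of cell composition in the differences of members was not tested.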

How the data were processed

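The authors deposited intensity values of HG-U133 Plus 2.0 arrays on a linear scale, made with GCOS 1.2 per the labels, with the trimmed mean of every array set to 100. Present and absent calls were not used here, and a minimum of 150 in at least 3 of 18 arrays stood in for them. Probe sets took gene symbols from the platform annotation, older symbols included. Of the probe sets tested 12435 had 1 symbol, 576 several and 1556 none, and the 62 controls were left out. Groups were compared on log2(signal + 16) with limma 3.58.1 in R 4.3.3 (lmFit, eBayes with trend) in a model of the 3 groups, with Benjamini-Hochberg adjustment over all 14567 probe sets at 0.05. The fit was tested on simulated data. Folds are ratios of mean linear signals. Values by animal were given for the pair of genes of each complex with the smallest p in either main comparison, and for further members chosen after their values were seen. Members, lists and tests were chosen with earlier results of these data known. The number of arrays limits the precision, and nothing states separate hybridization batches. Alternatives covered the offset, normalization, filter, probe sets, sex, label numbers, poly-A control arrays, the GAPDH ratio, the methods' t-test and each animal in turn.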

Additional observations from a re-analysis of the deposited data

Results flagged for a closer look

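In 118 groups of values examined (50 probe sets and 9 set medians, in old and in young adult animals), 3 held an animal far from the others, and chance alone flags about 5% of groups. ATP5F1C (205711_x_at) had a signal of 3119 in old M2, with the next old animal at 2411 and the lowest at 1889. UQCRB (205849_s_at) had 579.4 in young adult M2, with the next young adult at 356.7 and the lowest at 267.6. The median deviation of the complex IV probe sets was -0.294 in young adult M1, with the next young adult at -0.105 and the highest at -0.017.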

How the results depend on the processing

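No member passed adjustment under any alternative run, in any of the 3 comparisons. The median difference of members for old minus young adult animals stayed positive under each alternative run, at 0.16 to 0.26 when each animal was left out. The 14 probe sets nominally higher in old animals became 6 of the 15 without the suffix _s_at or _x_at, 6 (3.21% of all probe sets) in a model of the females alone (against 5 for females in the model of both sexes), and 5 to 14 when each animal was left out, the 5 without young adult M1. Against old animals, the 4 probe sets nominally lower in AD-like animals became 2 of the 15 without those suffixes (3.64%), 11 with sex as a covariate (8.77% of all probe sets), 10 with females only, 2 within the arrays with poly-A control signal (3.4%), 2 in the methods' t-test (2.14%), and 2 to 7 when each animal was left out (7 without AD-like F1 and 2 without F2). The AD-like minus old median was -0.20 to 0.05 when each animal was left out, and the AD-like minus young adult median -0.083 to 0.26, negative without AD-like F1. For ATP5F1A the AD-like minus old difference was -2.191 to 0.113 when each animal was left out, positive without AD-like F2, and 0.039 within the arrays with poly-A control signal. Where not visible from fewer animals or probe sets, the cause was not tested.

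Animals with the same label number (F1, M1 and so on) in the old and young adult groups had deviations that correlated at 0.057 to 0.47 over 6 pairs, which does not pair them. With the number as a replicate block, 14 members were nominally higher in old animals (4.675% of all probe sets), 11 nominally lower in AD-like animals when set against old ones (12.75% of all probe sets), and 0 passed adjustment.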
